A study of Mus musculus with 8 samples.

Results

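Cultures of mouse small cell lung cancer (SCLC) that the sample descriptions call old were compared with cultures that they call new, by RNA-seq. Membership follows the word old or new in the description of each library, and the comparison takes in 8 of the 8 libraries of the series, 4 old and 4 new. The old libraries come from the cultures Lmyc1 old and Lmyc3 old, and the new libraries from Lmyc3 new and Lmyc5 new. Each culture gave 1 library with an empty vector and 1 with forced expression of mouse Nfib, a DNA-binding member of the nuclear factor I group. That arm was a covariate here, so the comparison concerns how the cultures differ apart from the vector. All 8 libraries share the genotype as far as it is given here (invCAG-Mycl-Luc, a Mycl and luciferase transgene, and Rb1-/-), the background strains FVB/n and 129/Ola and an origin in primary lung tumors. No source used here explains the words old and new, gives passage numbers or ages, or says whether the vector arms of a culture were grown or sequenced separately in time. The line Lmyc3 carries both labels, while Lmyc1 is old and Lmyc5 is new, so the label is partly a comparison of lines.

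SCLC is a fast-growing lung tumor with features of neuroendocrine cells, the rare hormone-secreting sensory cells of the airway lining. Its neuroendocrine state rests on transcription factors such as Insm1, which keep on genes of dense-core secretory granules, and loss of Rb1 removes a brake on E2F-driven DNA replication. Tumor cultures also differ in how they make energy, by glycolysis or by oxidative phosphorylation in mitochondria, and in stress programs such as the Atf4 response to amino acid shortage.

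Total counts ranged from 21815264 to 29934021 per library, and 17530 to 18227 genes had at least 1 count. A count of 0 allows up to 3 counts, or 0.10 to 0.138 CPM (counts-per-million), which covers counting error only. Counts of mitochondrially encoded genes made up 2.20% to 4.81% of a library. Where 4 values are given for a label they are in the order Lmyc1 old then Lmyc3 old, or Lmyc3 new then Lmyc5 new, each with the empty vector library before the Nfib library. The labelled cell type was checked by its markers. Insm1, a neuroendocrine transcription factor, ranged from 93.1 to 511 CPM and Chga, a secretory granule protein, from 426 to 1694 CPM. Lists of markers of other cell types held members near 0 and members that were well expressed. Of 10 leukocyte markers, 8 stayed under 1 CPM in every library, among them Ptprc at up to 0.0436 CPM, and Coro1a reached 56.5 CPM. Of 11 fibroblast markers, 7 stayed under 1 CPM, among them Col1a1 at up to 0.184 CPM, and Fbln1 and Thy1 reached 37.8 and 36.6 CPM. Of 9 endothelial markers, 5 stayed under 1 CPM, among them Pecam1 at up to 0.426 CPM, and Vwf reached 650 CPM. Of 8 tuft cell markers, 5 stayed under 1 CPM, among them Pou2f3 at up to 0.184 CPM, and Avil reached 201 CPM. Of 20 alveolar and airway markers and 14 glial and neural progenitor markers, 10 and 7 stayed under 1 CPM, and Abca3 and Mbp were the highest, at up to 115 and 238 CPM. The summed level was 19.8 to 46.4 CPM in old and 20.9 to 58.3 CPM in new libraries for leukocyte markers, 25.7 to 76.6 and 5.22 to 34.7 CPM for fibroblast markers, and 52.3 to 381 and 60.8 to 652 CPM for endothelial markers. It was 6.91 to 204 and 0.965 to 77.7 CPM for tuft cell markers, 111 to 147 and 111 to 139 CPM for alveolar and airway markers, and 173 to 267 and 106 to 259 CPM for glial and neural progenitor markers. Each of these 6 sums overlapped between the labels, and their part in the results was not tested. Fewer cells of a type and less RNA per cell cannot be told apart in such bulk samples. Rb1 gave 29.5, 25.3, 12.3 and 11.5 CPM in the old libraries and 40.3, 37.5, 39.5 and 29.5 CPM in the new libraries, and the labels do not say which part of the gene is deleted, so these reads check nothing. The Y-linked gene Ddx3y was at 68.5 to 168 CPM in both Lmyc3 cultures and at no more than 0.0390 CPM in Lmyc1 and Lmyc5, so both Lmyc3 cultures expressed it.

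Of 13380 genes tested, 444 differed between the labels at an adjusted p under 0.05 (edgeR's quasi-likelihood test, Benjamini-Hochberg), which is 3.32% of the genes. Of these, 165 were higher in old cultures (1.23%) and 279 were higher in new cultures (2.09%). Differences are given as log2 fold changes, old minus new, so that a positive value means a higher level in the old cultures. The median was 1.02 among genes higher in old and -0.99 among genes higher in new, against -0.01 over all genes tested. For each of the 444 genes, the 4 libraries of one label all lay above the 4 of the other. That was so for 2765 of all tested genes (20.7%), 1375 with old above new (10.3%) and 1390 with new above old (10.4%). These p-values treat the 8 libraries as separate samples although the arms of a culture share their cells, so they are too small as a statement about old and new cultures in general. With the culture as a random block in limma, or with counts summed per culture, no gene passed (0 in limma and 0 in edgeR), and an exact permutation of the labels over 4 cultures could not give a two-sided p below 0.333. DESeq2 on the 8 libraries called 1106 genes higher in old (8.27%) and 1162 higher in new (8.68%), and these included all 444. At an unadjusted p under 0.05, 992 genes passed in the block fit, 385 of them among the 444, and 734 passed with summed counts. Leaving out any single library also left few calls, 0 to 13 higher in old and 1 to 34 higher in new.

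The label was not the main axis along which the cultures differed. Culture accounted for 92.3% of the sum of squares of log2 CPM over the tested genes, label for 23.6% and vector arm for 3.46%. The first principal component (47.7% of the variance) set Lmyc1 old and Lmyc3 new against Lmyc3 old and Lmyc5 new, and 1.26% of it lay between the labels. The second component (24.7% of the variance) had 68.3% of its spread between the labels. Across 13380 genes, which are not independent replicates, the cultures most alike were Lmyc1 old and Lmyc3 new, with a Pearson correlation of 0.895. The 2 cultures of the line Lmyc3 were the least alike, at 0.816, and 4133 genes (30.9%) differed more than 2-fold between them. The arms of a single culture correlated at 0.973 to 0.985.

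**Figure D1:**
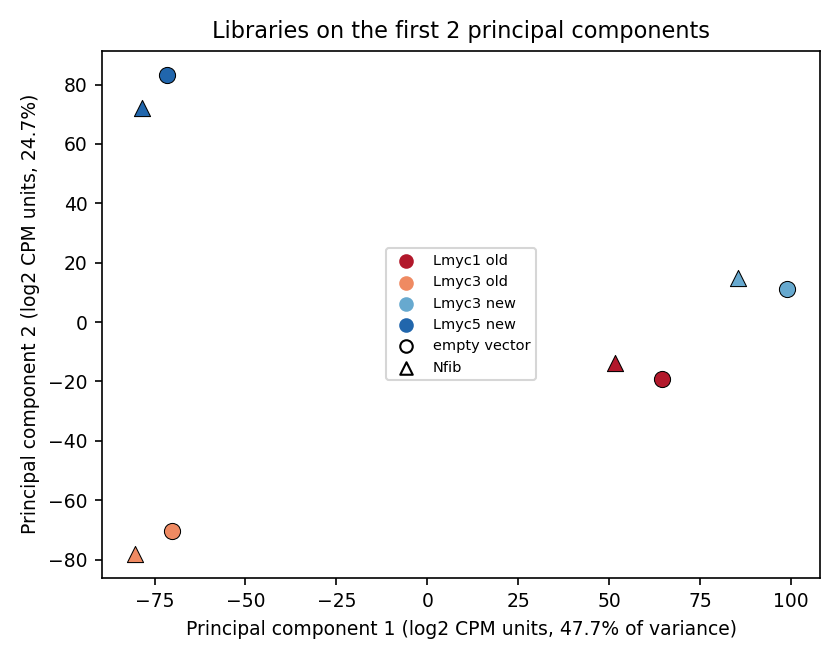
Each point is 1 library placed by the first and second principal components of log2 CPM over 13380 genes; colour gives the culture and shape the vector arm. Lmyc1 old lies near Lmyc3 new on the first component, which holds 47.7% of the variance, while the second separates Lmyc5 new and Lmyc3 old.

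The clearest regional pattern was on chromosome 8, where 163 of 734 tested genes were higher in new cultures (22.2%) and 2 were higher in old cultures. These 163 genes made up 58.4% of all genes higher in new, from a chromosome with 5.49% of the tested genes. The median over chromosome 8 was -0.74, with quartiles of -1.06 and -0.27, and 80.9% of its genes had a negative value. On all other chromosomes together, 163 of 12646 genes were higher in old (1.29%) and 116 were higher in new (0.917%), with a median of 0.01. When the chromosome 8 genes were left out of the fit, 52 and 56 of these 12646 genes were called. As a share of all counts, chromosome 8 took 5.88%, 5.46%, 3.34% and 3.34% in the old libraries and 4.94%, 5.01%, 4.49% and 4.54% in the new libraries. The summed share overlapped between labels, and Lmyc1 old held a few very abundant genes of this chromosome, described next. The chromosome's median stayed between -0.62 and -0.95 in every alternative that included its genes, whereas the number of its genes higher in new ranged from 0 to 503 and was 0 in 7 of 8 fits without a single library.

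**Figure D2:**
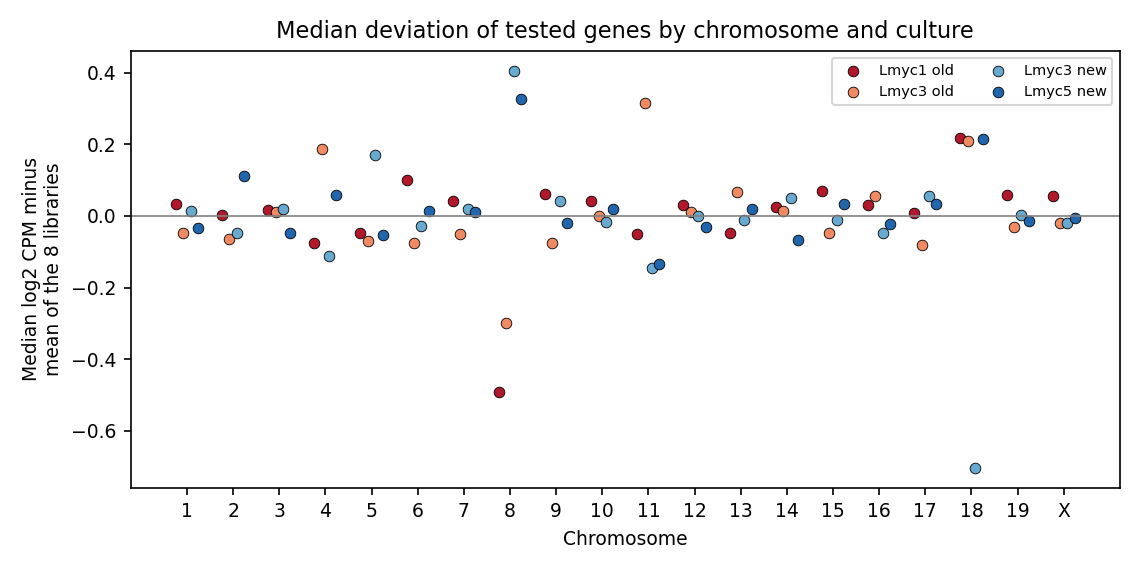
Median over the tested genes of each chromosome of log2 CPM minus the mean of the 8 libraries, with 1 point per culture. On chromosome 8 the old cultures lie at -0.49 and -0.30 and the new cultures at 0.41 and 0.33, and on chromosome 18 Lmyc3 new alone lies at -0.70.

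Along the chromosome the old cultures were low over different stretches, whose limits were set after the values were seen. In Lmyc1 old, medians were below 0 along the chromosome except in a proximal window. In Lmyc3 old they fell below 0 mainly in the distal part. Lmyc3 old was also below both new cultures in some proximal windows. From 20000001 to 30000000 its median was 0.07, against 0.56 in Lmyc3 new and 0.20 in Lmyc5 new. From 70000001 to 80000000 it was above them, at 0.55 against 0.32 and 0.11. From position 80698507 to 129234406 (GRCm38), 133 of 371 genes were higher in new cultures (35.8%), 246 had all new libraries above all old ones (66.3%), and the median was -0.87, or 1.83-fold. The 4 cultures had medians of -0.36 (Lmyc1 old), -0.48 (Lmyc3 old), 0.40 (Lmyc3 new) and 0.47 (Lmyc5 new) there, relative to the mean of the 8 libraries on the log2 scale. In the proximal part up to 80058006, without a window between 10272572 and 19798548, 29 of 313 genes were higher in new. The median of that part was -0.83 in Lmyc1 old, against 0.21 in Lmyc3 old, 0.48 in Lmyc3 new and 0.16 in Lmyc5 new. The window itself, with 50 tested genes, went the other way in 1 culture only, with a median of 2.46 in Lmyc1 old and of -0.90, -0.55 and -0.79 in the others. Windows of 10 Mb with at least 20 tested genes on the other chromosomes had median fold changes, old minus new, between -0.50 and 0.54 over 206 windows. Single cultures differed more there. On chromosome 18, from 80000001 to 90000000, the median was 1.25 for Lmyc3 old minus Lmyc3 new and -0.31 for Lmyc1 old minus Lmyc5 new. On chromosome 4, from 150000001 to 160000000, it was 1.29 for Lmyc3 old minus Lmyc5 new and 0.01 for Lmyc1 old minus Lmyc3 new. DNA copy number was not measured in these files, and its part in the pattern was not tested.

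**Figure D3:**
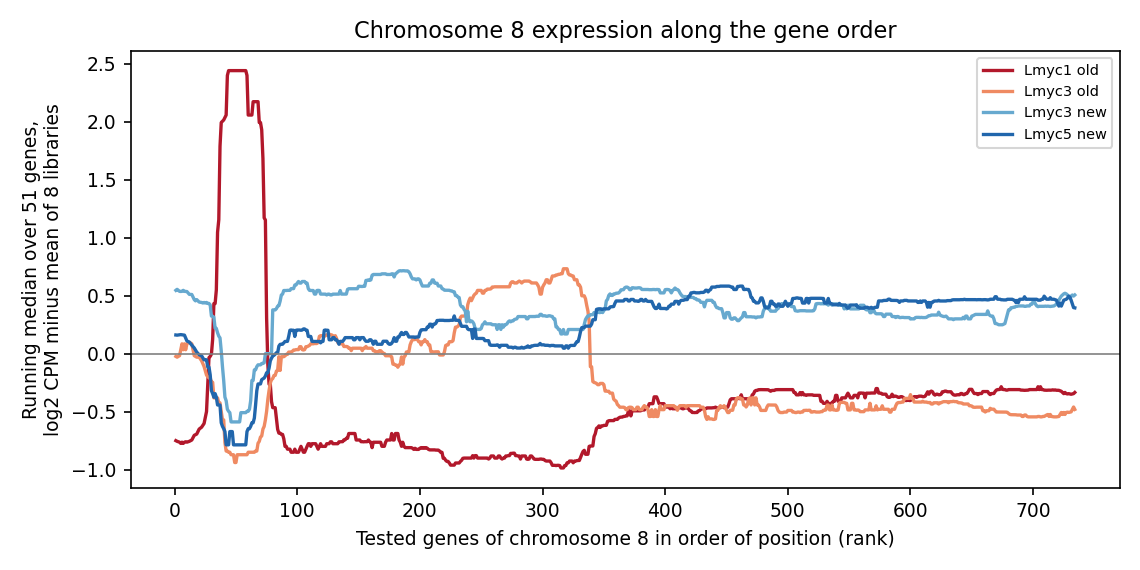
Running median over 51 neighbouring genes of log2 CPM minus the mean of the 8 libraries, for the 734 tested genes of chromosome 8 in order of position, with 1 line per culture. Lmyc1 old peaks at about the 50th gene and is otherwise below 0, and Lmyc3 old lies well below both new cultures beyond about the 340th gene.

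Genes of the distal stretch that passed included broadly expressed ones. Smarca5 (ENSMUSG00000031715, chromosome 8, 80698507 to 80739497), the motor of ISWI chromatin remodelling complexes, had 140.2, 139, 159 and 174 CPM in the old libraries and 327, 333, 362 and 356 CPM in the new libraries. The labels did not overlap, and Smarca5 was higher in new cultures, with a log2 fold change of -1.17 ± 0.10 (SE, obtained by dividing the fold change by the root of edgeR's F statistic) and an adjusted p of 0.0128. Rpl13 (ENSMUSG00000000740, chromosome 8, 123102350 to 123105244), a protein of the large ribosomal subunit, had 103, 109, 107 and 112 CPM in the old libraries and 202, 237, 221 and 236 CPM in the new libraries, a difference of -1.05 ± 0.07 with an adjusted p of 0.0128. All 4 new libraries lay near 2 times the old ones, and Rpl13 was the 1 gene of 50 tested ribosomal protein genes that passed. Itgb1 (ENSMUSG00000025809, chromosome 8, 128685654 to 128733200), the beta-1 integrin that binds extracellular matrix, had 227, 221, 235 and 205 CPM in the old libraries and 513, 360.1, 483 and 410.0 CPM in the new libraries. It was higher in new, with a log2 fold change of -0.98 ± 0.10 and no overlap. Egln1 (ENSMUSG00000031987, chromosome 8, 124908596 to 124949254), the oxygen-sensing prolyl hydroxylase that marks Hif1a for breakdown, had 41.2, 48.2, 45.9 and 38.7 CPM in the old libraries and 91.8, 87.2, 128 and 118 CPM in the new libraries. Every new library was above 87 CPM and every old one under 49 CPM, with a log2 fold change of -1.29 ± 0.17. Cnot1, Vps35, Aars and Cyld of the same stretch were among 27 genes called whichever of the 4 cultures was left out. Of these 27 genes, 23 were higher in new, 4 were higher in old and 19 lay on chromosome 8.

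Larger differences on the chromosome were found in Npy1r, Gab1 and Tex15, among others. Npy1r, a receptor of neuropeptide Y, had 2.95, 5.88, 3.78 and 1.79 CPM in the old libraries and 87.05, 73.8, 62.7 and 23.9 CPM in the new libraries. The lowest new library was about 4 times the highest old one, and the log2 fold change was -4.07 ± 0.56. Gab1, a docking protein of receptor tyrosine kinase signalling, had 2.27, 2.09, 8.04 and 8.74 CPM in the old libraries and 74.95, 73.4, 50.2 and 36.6 CPM in the new libraries, with a difference of -3.47 ± 0.63. Tex15, a gene of the male germ line that acts in meiosis and transposon silencing, had 12.9, 11.5, 17.3 and 16.3 CPM in the old libraries and 139, 182, 87.6 and 70.8 CPM in the new libraries and a log2 fold change of -3.05 ± 0.36. In Npy1r, Gab1 and Tex15 the Lmyc3 new libraries were the highest. Mcm5, a subunit of the replicative helicase, Smad1, a transducer of BMP signals, Dnajb1, a heat shock co-chaperone, and Ier2, an immediate early gene, were also higher in new, with log2 fold changes of -1.02, -0.85, -1.17 and -2.49.

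In the proximal window, levels in Lmyc1 old were far above those of the other cultures, while the labels overlapped or did not pass for most genes. Lamp1, a major protein of the lysosomal membrane, had 7924, 5949, 345 and 309.9 CPM in the old libraries and 564, 478, 335 and 324 CPM in the new libraries. Tfdp1, the dimer partner of E2F factors, had 4442, 4193, 335 and 363 CPM in the old libraries and 442, 488, 346 and 355 CPM in the new libraries. Cul4a, a scaffold of ubiquitin ligases, had 2493, 2306, 141 and 151 CPM in the old libraries and 281, 285, 264 and 246 CPM in the new libraries. Only the first pair of values in each, from Lmyc1 old, stood apart, and the old-against-new tests gave adjusted p-values of 0.186, 0.192 and 0.26. Lamp1, Tfdp1 and Cul4a were chosen after their values were seen. Both genes of chromosome 8 that were higher in old lie in this window. Col4a2, a chain of basement membrane collagen, had 25.5, 22.6, 70.96 and 128 CPM in the old libraries and 1.89, 1.38, 1.85 and 6.21 CPM in the new libraries and was highest in Lmyc3 old, with a log2 fold change of 4.50 ± 0.79. Adprhl1 had 12.8, 19.9, 5.39 and 10.6 CPM in the old libraries and 0.334, 0.302, 0.406 and 0.663 CPM in the new libraries, a difference of 4.78 ± 0.49.

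The largest differences off chromosome 8 were in genes listed at or near 0 in every library of one label. Magel2 (ENSMUSG00000056972, chromosome 7, 62376979 to 62381640), an imprinted gene of the Prader-Willi region, had 35.5, 36.4, 10.9 and 4.05 CPM in the old libraries and 0.111, 0, 0 and 0 CPM in the new libraries. The new cultures held 3 counts in all, so the ratio of 753 has a counting interval (95%, Poisson) of 258 to 3651, and the adjusted p was 0.0275. Tmem98 (ENSMUSG00000035413, chromosome 11, 80810175 to 80822033), a transmembrane protein, had 2.205, 3.09, 25.02 and 33.9 CPM in the old libraries and 0.0371, 0.0432, 0 and 0 CPM in the new libraries, with 2 counts in the new libraries and a ratio of 720 (199 to 5945). Magel2 was highest in Lmyc1 old and Tmem98 in Lmyc3 old, so the old cultures were not alike in either. Xlr3b (ENSMUSG00000073125, chromosome X, 73192207 to 73202930) had 10.6, 9.89, 8.61 and 8.14 CPM in the old libraries and 0, 0, 0 and 0.03903 CPM in the new libraries, close to even among the old libraries. It belongs to a family of near-identical X-linked copies, so its assignment is uncertain.

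In the other direction, Prrt1 (ENSMUSG00000015476, chromosome 17, 34629533 to 34633126) had 0.0339, 0, 0 and 0 CPM in the old libraries and 4.898, 4.71, 2.21 and 2.498 CPM in the new libraries. The old libraries held 1 count in all, and the ratio of new to old was 345 with an interval of 61.9 to 13613. Myadm (ENSMUSG00000068566, chromosome 7, 3289038 to 3299345), a membrane protein named for its link to myeloid differentiation, had 0, 0.0436, 0.0473 and 0 CPM in the old libraries and 4.49, 2.81, 10.5 and 8.31 CPM in the new libraries, with 2 counts in the old libraries and a ratio of 308 (85.2 to 2540). Fbp1 (ENSMUSG00000069805, chromosome 13, 62864753 to 62888282), the fructose bisphosphatase of gluconeogenesis, had 0, 0.261, 0.5203 and 0.23 CPM in the old libraries and 12.3, 11.3, 11.2 and 8.08 CPM in the new libraries. Its log2 fold change was -5.39 ± 1.04 with an adjusted p of 0.0482, and in each of these genes every new library exceeded every old one.

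The start regions of these genes of largest difference are shown because whole genes were on under one label and close to off under the other. Each is the stretch of 250 bases before the annotated start from RefSeq (GRCm38.p6), 5′ to 3′ on the gene's strand, with each CG in capitals, the dinucleotide at which mammalian DNA is methylated. The motif CG was counted in the printed strand, and it reads the same on both strands. Of 32841 such windows of the same length, 92.1% held at least 1 CG, with a median of 6.
Magel2 (chr7:62376729-62376978, plus strand, 7 CG): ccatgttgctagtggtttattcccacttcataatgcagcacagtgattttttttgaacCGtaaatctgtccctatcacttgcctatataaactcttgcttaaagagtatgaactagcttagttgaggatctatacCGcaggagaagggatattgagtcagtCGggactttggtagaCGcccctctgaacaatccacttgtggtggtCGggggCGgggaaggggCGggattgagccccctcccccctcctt
Tmem98 (chr11:80810116-80810365, plus strand, 20 CG): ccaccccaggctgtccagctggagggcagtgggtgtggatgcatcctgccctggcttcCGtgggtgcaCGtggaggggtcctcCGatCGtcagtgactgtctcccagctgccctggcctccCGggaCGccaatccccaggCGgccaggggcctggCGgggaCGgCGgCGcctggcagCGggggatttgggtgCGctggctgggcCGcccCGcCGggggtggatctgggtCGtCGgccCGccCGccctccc
Xlr3b (chrX:73191929-73192178, plus strand, 6 CG): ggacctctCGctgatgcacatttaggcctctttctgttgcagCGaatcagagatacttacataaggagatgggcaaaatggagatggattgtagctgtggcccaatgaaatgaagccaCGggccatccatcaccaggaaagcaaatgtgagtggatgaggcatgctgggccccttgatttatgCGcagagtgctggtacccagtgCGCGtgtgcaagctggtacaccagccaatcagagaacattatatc
Prrt1 (chr17:34629314-34629563, plus strand, 5 CG): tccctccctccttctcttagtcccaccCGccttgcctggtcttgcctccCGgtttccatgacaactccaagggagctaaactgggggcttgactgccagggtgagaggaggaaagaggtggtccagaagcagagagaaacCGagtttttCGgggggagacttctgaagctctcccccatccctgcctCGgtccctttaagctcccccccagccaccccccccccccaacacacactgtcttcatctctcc
Myadm (chr7:3288788-3289037, plus strand, 1 CG): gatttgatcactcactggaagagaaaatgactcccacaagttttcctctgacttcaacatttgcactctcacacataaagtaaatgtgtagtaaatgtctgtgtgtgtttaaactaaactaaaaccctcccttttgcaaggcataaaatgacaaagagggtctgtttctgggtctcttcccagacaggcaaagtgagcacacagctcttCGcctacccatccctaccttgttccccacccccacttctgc
Fbp1 (chr13:62888283-62888532, minus strand, 5 CG): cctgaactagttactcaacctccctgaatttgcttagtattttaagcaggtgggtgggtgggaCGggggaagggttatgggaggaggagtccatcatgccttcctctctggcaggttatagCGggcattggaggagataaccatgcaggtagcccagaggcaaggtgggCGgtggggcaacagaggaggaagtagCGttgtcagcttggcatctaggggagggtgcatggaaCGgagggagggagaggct
The window of Tmem98, with 20 CG, was the richest of the 6, and 17.95% of all windows held as many or more. Magel2 held 7, a number reached by 46.3% of windows, Xlr3b 6 (50.4%), and Prrt1 and Fbp1 5 each (55.6%). Myadm held 1. Methylation was not measured here.

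Stmn4, Rgs7bp and Parp8 were among the other genes of largest difference that were higher in old cultures. Stmn4, a stathmin that binds tubulin, had 15.03, 8.24, 54.2 and 58.7 CPM in the old libraries and 0.111, 0.1295, 0.361 and 0.468 CPM in the new libraries. Rgs7bp, which anchors a regulator of G protein signalling in neurons, had 54.5, 30.5, 46.3 and 56.7 CPM in the old libraries and 1.89, 0.863, 0.316 and 0.976 CPM in the new libraries. Parp8, an ADP-ribosyltransferase, had 41.5, 25.6, 44.2 and 37.95 CPM in the old libraries and 0.445, 0.216, 0.812 and 0.859 CPM in the new libraries. All 3 were below 2 CPM in every new library and above 8 CPM in every old one, with log2 fold changes of 6.97, 5.53 and 5.98. Rest, the repressor of neuronal genes in cells that are not neurons, had 18.4, 14.6, 1.09 and 3.496 CPM in the old libraries and 0.148, 0.259, 0.0903 and 0.273 CPM in the new libraries, and so was higher in old by 5.64 ± 1.07 mostly through Lmyc1 old. Gpc3, a heparan sulfate proteoglycan of fetal tissues, had 3.22, 10.9, 6.53 and 8.28 CPM in the old libraries and 0.148, 0.345, 0.0451 and 0.156 CPM in the new libraries, a difference of 5.38 ± 0.54. Ak5, an adenylate kinase of brain, had 26.3, 20.1, 36.7 and 66.4 CPM in the old libraries and 1.45, 1.64, 0.587 and 1.72 CPM in the new libraries, a difference of 4.81 ± 0.51. Ildr2, Slc44a5, Lhfp, Decr1 and Igsf21 complete the 15 of largest difference, at 8.07, 5.996, 5.48, 4.94 and 4.71. Among abundant genes, Reep1, which shapes endoplasmic reticulum tubules, had 146, 133, 77.6 and 81.1 CPM in the old libraries and 20.5, 22.8, 15.1 and 28.1 CPM in the new libraries, a difference of 2.36 ± 0.30. Ckb, the brain creatine kinase, and Ptprn, a phosphatase-like protein of secretory granules, were higher in old by 2.17 and 2.14, Abat, which breaks down GABA, by 2.06 and Esrrg, an orphan nuclear receptor, by 2.02.

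Genes higher in new cultures included the most even difference of the data. Tmem171, a transmembrane protein, had 3.29, 2.83, 2.74 and 2.85 CPM in the old libraries and 35.9, 37.04, 36.8 and 36.8 CPM in the new libraries. The values within each label were almost level, and the log2 fold change of -3.64 ± 0.15 had the smallest adjusted p of all genes, 0.00129. It was the 1 gene that passed at an adjusted p under 0.01. Col8a1, a short-chain collagen, had 23.5, 26.4, 49.4 and 14.1 CPM in the old libraries and 399, 188, 518 and 216 CPM in the new libraries, a difference of -3.49 ± 0.33. The empty vector library had the higher value in both new cultures. Efs, an adaptor of Src family kinases, had 1.05, 5.75, 2.98 and 4.78 CPM in the old libraries and 79.1, 114, 124 and 143 CPM in the new libraries, and Mest, an imprinted gene expressed from the paternal copy, had 4.51, 7.45, 1.66 and 1.38 CPM in the old libraries and 58.7, 142, 59.4 and 86.9 CPM in the new libraries. Their log2 fold changes were -5.12 ± 0.46 and -4.47 ± 0.63. Insrr, a receptor kinase related to the insulin receptor, had 6.38, 12.3, 4.73 and 3.54 CPM in the old libraries and 44.3, 47.5, 207 and 104 CPM in the new libraries and was highest in Lmyc5 new. Inhbb, the beta-B subunit of activins and inhibins, had 0.543, 2.92, 1.84 and 3.86 CPM in the old libraries and 24.7, 21.8, 30.9 and 29.6 CPM in the new libraries, a difference of -3.72 ± 0.55. Bex1, Slc43a1, an amino acid transporter, and Cped1 were higher in new, with log2 fold changes of -3.72, -4.19 and -5.06.

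**Figure D4:**
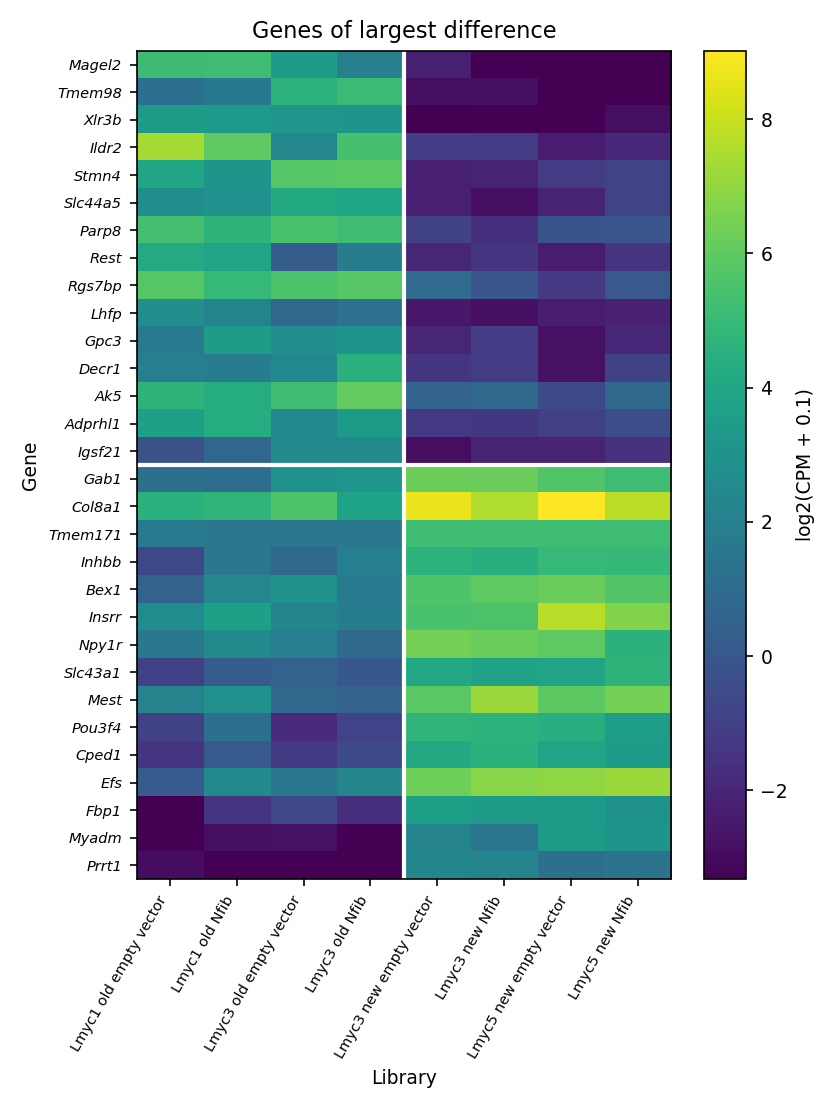
Levels as log2(CPM + 0.1) in the 8 libraries (columns) for the 15 genes of largest difference in each direction (rows), with white lines between labels and directions. The upper 15 genes are bright in the old columns and the lower 15 in the new columns, and Tmem171 is even within each label.

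Genes of the mitochondrial respiratory chain had mostly positive values. Of 40 genes for nuclear-encoded subunits of the respiratory chain and ATP synthase, 6 were higher in old and 1 was higher in new. Together these made up 17.5%, against 3.32% of all genes tested. In 33 of the 40, all old libraries lay above all new ones, a pattern found in 10.3% of all genes tested. The median was 0.53, against -0.01 over all genes tested, and 39 of 40 values were positive. With total-count scaling, 4 of the 40 were higher in old and 1 in new, with 155 and 345 of 13380 over all genes. By culture the group's median was 0.15 in Lmyc1 old, 0.39 in Lmyc3 old, -0.21 in Lmyc3 new and -0.33 in Lmyc5 new, relative to the mean of the 8 libraries. Uqcrc1, a core subunit of complex III, had 232, 229, 237 and 221 CPM in the old libraries and 149.8, 153, 142 and 140.1 CPM in the new libraries. The labels were clearly apart and each culture was tight, with a log2 fold change of 0.65 ± 0.07 and an adjusted p of 0.016. Ndufs1 of complex I was higher in old by 0.53, Sdhd of complex II by 0.66, Cox8a of complex IV by 0.66 and Atp5d of ATP synthase by 0.64. The exception was Cox4i1, a subunit of complex IV that lies on the distal stretch of chromosome 8, with 186, 184, 206 and 184 CPM in the old libraries and 247, 256, 270.1 and 258 CPM in the new libraries and a log2 fold change of -0.44 ± 0.08. The 11 tested genes that mitochondria encode all had positive values, with a median of 0.42, but none passed and every one overlapped between labels.

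Several enzymes of glycolysis were higher in old cultures. Of 36 tested genes of glycolysis and the hypoxia response, 5 were higher in old, 2 were higher in new (19.4% together, against 3.32% of all genes tested), and 14 had all old libraries above all new ones (10.3% of all genes tested), with a median of 0.57. Aldoa, the aldolase of muscle and most other tissues, had 834, 714, 1008 and 850.0 CPM in the old libraries and 403, 368, 357 and 405 CPM in the new libraries. Pkm, the pyruvate kinase of the last step, had 1631, 1474, 2129 and 1840.3 CPM in the old libraries and 902, 896, 878 and 836 CPM in the new libraries. Both had every old library well above every new one, with log2 fold changes of 1.15 ± 0.12 and 1.01 ± 0.13 and adjusted p-values of 0.0154 and 0.0197. Gpi1, Pgam1 and Pgk1, enzymes of steps between, were higher in old by 1.08, 0.99 and 0.71. Ldha, which makes lactate, had 505, 425, 537 and 902 CPM in the old libraries and 283, 303, 236 and 292 CPM in the new libraries, without overlap but with an adjusted p of 0.0579. The 2 genes higher in new were Egln1 of chromosome 8 and Slc2a3, a neuronal glucose transporter at 0.102, 0.131, 0.0946 and 0.046 CPM in the old libraries and 0.631, 0.734, 1.399 and 0.898 CPM in the new libraries. Vegfa, an angiogenic factor induced by hypoxia, had a value of -0.39 and Hif1a, the hypoxia-stabilised factor, of -0.03, and neither passed. In the oxidative stress list, 3 of 28 genes were higher in old, against 1.23% of all genes tested, and none in new, with a median of 0.34. These were Gpx1, a glutathione peroxidase, with 94.7, 74.3, 105 and 127 CPM in the old libraries and 42.7, 31.9, 19.5 and 17.6 CPM in the new libraries, Sod1, the cytosolic superoxide dismutase, at 0.64, and Txnrd1, thioredoxin reductase, at 0.55. With total-count scaling, 2 of the 28 oxidative stress genes were higher in old. Among 36 sterol and fatty acid synthesis genes, Me1, malic enzyme, was higher in old by 0.65.

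Genes of the unfolded protein and amino acid stress responses had mostly negative values. Of 42 tested genes, 1 was higher in new (2.38%, against 2.09% of all genes tested), while 18 had all new libraries above all old ones (10.4% of all genes tested), 15 of them off chromosome 8. When libraries were scaled by total counts, 5 of the 42 were higher in new, with 345 of 13380 higher in new over all genes. The median was -0.49, and 34 values were negative. Chac1, a glutathione-degrading target of Atf4, was the gene that passed, with 21.3, 21.7, 20.3 and 9.62 CPM in the old libraries and 43.04, 57.3, 56.02 and 64.3 CPM in the new libraries. The 4 new libraries lay above 43 CPM and the old ones under 22 CPM, and the log2 fold change was -1.61 ± 0.30 with an adjusted p of 0.0443. Trib3, a pseudokinase induced in the same response, had 25.6, 29.8, 15.7 and 11.5 CPM in the old libraries and 38.4, 64.98, 63.96 and 119 CPM in the new libraries, with a value of -1.73 ± 0.43 and an adjusted p of 0.0818. Xbp1, a transcription factor of the secretory pathway, had 47.9, 59.2, 47.7 and 74.5 CPM in the old libraries and 89.5, 104, 202 and 268 CPM in the new libraries. In both genes Lmyc5 new was the highest culture and the labels did not overlap, but neither passed. Cth, the cystathionine lyase that makes cysteine, is not on the list and was chosen after its values were seen. Cth was 1 of the 27 genes called whichever culture was left out. It had 4.82, 6.23, 5.35 and 4.28 CPM in the old libraries and 19.1, 43.7, 20.1 and 32.6 CPM in the new libraries, a difference of -2.40 ± 0.27. The endoplasmic reticulum chaperones Hspa5 and Canx had values of 0.10 and 0.43 and overlapped between labels.

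**Figure D5:**
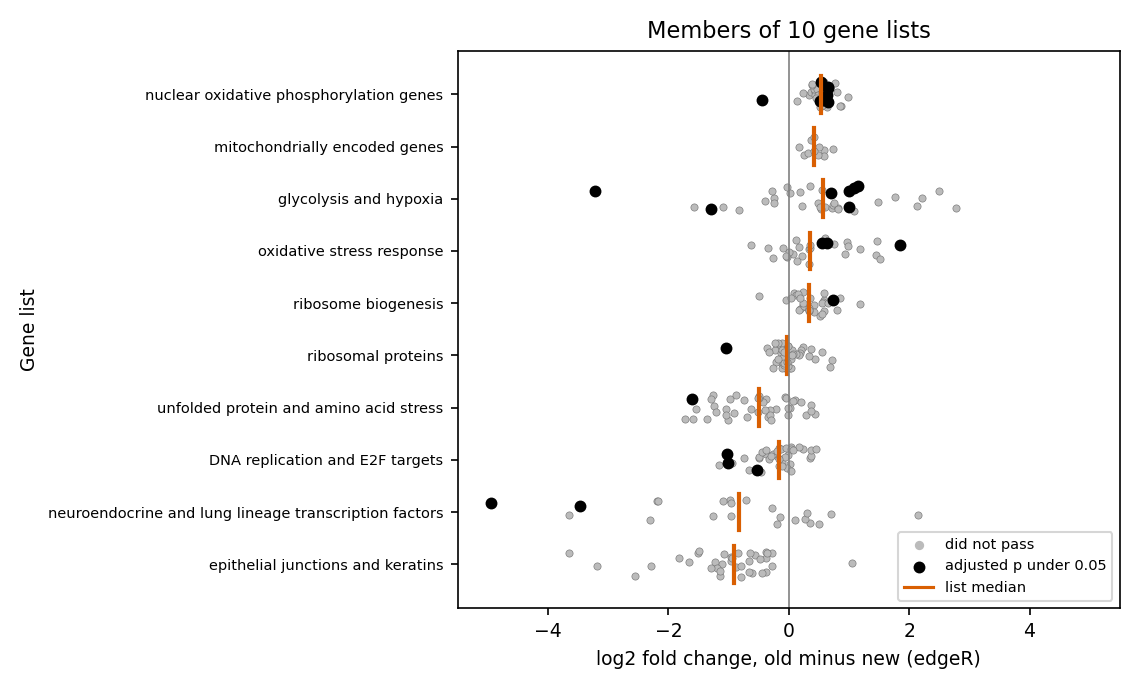
Each point is the log2 fold change, old minus new, of 1 tested gene in 10 gene lists; black points passed at an adjusted p under 0.05 and the bar is the list's median. Nuclear oxidative phosphorylation genes cluster at a median of 0.53 with the single black point Cox4i1 on the other side, and the stress list has its median at -0.49.

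Most lineage transcription factors had negative values, while secretory genes differed in direction. Of 22 tested lineage transcription factors, Pou3f4 and Sox2 were higher in new and 5 had all new libraries above all old ones, against 2.09% and 10.4% of all genes tested. The median was -0.84, and 15 values were negative. By culture the median was -0.16 in Lmyc1 old, -0.36 in Lmyc3 old, 0.23 in Lmyc3 new and 0.69 in Lmyc5 new. The list's summed level was 2230 to 2903 CPM in old and 4056 to 5036 CPM in new libraries, and a sum follows its most abundant members. Pou3f4, a POU factor of neural development, had 0.441, 2.22, 0.189 and 0.46 CPM in the old libraries and 26.6, 24.8, 21.9 and 11.98 CPM in the new libraries, a difference of -4.96 ± 0.86. Sox2, a factor of progenitor cells, had 0.407, 1.05, 2.32 and 1.01 CPM in the old libraries and 10.6, 10.97, 20.99 and 10.8 CPM in the new libraries, a difference of -3.47 ± 0.58. The highest value of either gene in any library was 26.6 CPM. Id2, an inhibitor of basic helix-loop-helix factors, and Foxa2 did not overlap and did not pass, with values of -2.18 and -1.26. Nkx2-1, the lung lineage factor, had 157, 136, 205 and 170.4 CPM in the old libraries and 202, 157, 167 and 104 CPM in the new libraries and overlapped. Of 27 secretory markers, 2 were higher in old and 1 was higher in new (11.1% together, against 3.32% of all genes tested). The list had 18 positive and 9 negative values. Pcsk1, the convertase that starts prohormone cleavage, had 82.1, 87.6, 59.3 and 31.5 CPM in the old libraries and 407, 339, 480.2 and 339.5 CPM in the new libraries. It was higher in new, with a log2 fold change of -2.58 ± 0.32 and an adjusted p of 0.0177, while Pcsk2, which acts after it, had 248, 215, 305 and 270.0 CPM in the old libraries and 106, 43.5, 189 and 153 CPM in the new libraries and a value of 1.11 that did not pass. Eno2 and Uchl1, neuronal enzymes used as SCLC markers, were higher in old by 1.35 ± 0.22 and 0.62 ± 0.09. Among 44 synaptic genes, Cplx2, a complexin that clamps vesicle fusion, had 423, 528, 612 and 357 CPM in the old libraries and 1260.3, 1080.0, 1481 and 1254 CPM in the new libraries and was higher in new, at -1.40 ± 0.18. Syt11, a synaptotagmin, was higher in old by 1.03 ± 0.19. Cacna1h, a T-type calcium channel, was the 1 of 40 ion channel genes that passed, with 18.3, 36.7, 15.1 and 14.1 CPM in the old libraries and 95.1, 104, 63.4 and 112 CPM in the new libraries. Genes that passed made up 4.55% of the synaptic list and 2.5% of the ion channel list, near the 3.32% of all genes tested.

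In the lists on growth, few genes passed. They made up 6.25% of cell cycle inhibitors, 3.57% of proliferation genes and 2.94% of ribosome biogenesis genes, against 3.32% of all genes tested. Of 40 DNA replication and E2F target genes, 3 were higher in new (7.50%, against 2.09% of all genes tested), with a median of -0.16: Mcm5 on chromosome 8, E2f8, a repressor of the E2F family, and Pola1, the catalytic subunit of the priming polymerase. E2f8 had 85.7, 88.7, 70.96 and 66.7 CPM in the old libraries and 176, 173, 159 and 123 CPM in the new libraries, a difference of -1.01 ± 0.16, and Pola1 a difference of -0.54 ± 0.08. Rbl1, the Rb1 relative p107, had 52.6, 53.03, 41.7 and 44.99 CPM in the old libraries and 80.7, 83.9, 117 and 108 CPM in the new libraries and was the 1 of 16 cell cycle inhibitors that passed, at -1.02 ± 0.17. Its relative Rbl2, on chromosome 8, had a value of -1.05 without overlap and did not pass. Of the 16 inhibitors, 15 had negative values, with a median of -0.54. All new libraries lay above all old ones in 4 of them, a pattern found in 10.4% of all genes tested. Of 28 proliferation genes Kif23, a kinesin of cell division, was higher in new, at -0.75. Of 34 ribosome biogenesis genes, 1 was higher in old (2.94%), although 32 values were positive with a median of 0.34. That gene was Polr1a, the largest subunit of RNA polymerase I, with 172, 175, 173 and 179.6 CPM in the old libraries and 91.1, 101, 112 and 118 CPM in the new libraries and a log2 fold change of 0.73 ± 0.10. In 10 of the 34 ribosome biogenesis genes all old libraries lay above all new ones (10.3% of all genes tested), and in 1 the reverse held. By culture the median of that list was highest in Lmyc3 old, at 0.44, and Lmyc1 old, at -0.10, was close to the new cultures.

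Adhesion and signalling genes were split in direction. Genes that passed made up 9.43% of the adhesion list, 15.4% of the Hippo-YAP list, 5.71% of the TGF-beta list and 9.09% of the imprinted list. They made up 4.88% of the interferon list and 3.33% of the WNT list, near the 3.32% of all genes tested. Of 53 integrin, cadherin and adhesion genes, Cntn1, Pcdh7 and Pcdh15 were higher in old and Alcam and Itgb1 were higher in new. Cntn1, a neuronal contactin, had 173, 109, 48.9 and 50.5 CPM in the old libraries and 5.01, 1.68, 3.205 and 5.39 CPM in the new libraries, a difference of 4.62 ± 0.62. Alcam, a homophilic adhesion protein, had 36.4, 70.9, 26.7 and 28.8 CPM in the old libraries and 97.1, 191, 132 and 110.4 CPM in the new libraries, a difference of -1.73 ± 0.34. Pcdh7 and Pcdh15, protocadherins, were at 4.49 and 2.002. Of 13 non-neuroendocrine and Hippo-YAP genes, Cav2, a caveolin, was higher in old with Rest, and had 14.9, 30.1, 10.2 and 41.6 CPM in the old libraries and 2.56, 7.64, 3.84 and 9.83 CPM in the new libraries. In every culture its value was larger in the Nfib library. Of 30 WNT pathway genes, Axin2, a feedback inhibitor, was higher in new, with 13.97, 14.9, 14.8 and 19.2 CPM in the old libraries and 26.4, 33.9, 34.4 and 37.3 CPM in the new libraries and a log2 fold change of -1.07 ± 0.16. In the TGF-beta and BMP list, Inhbb and Smad1 were the 2 of 35 that passed. Of 33 imprinted genes, Magel2 was higher in old and Mest and its chromosome 6 neighbour Copg2, at -0.56, were higher in new, with a median of 0.02 over the list. Of 41 interferon and MHC class I genes, Parp14, at 0.271, 0.305, 0.426 and 0.23 CPM in the old libraries and 2.82, 3.19, 2.08 and 3.47 CPM in the new libraries, and Ifi27, at 10.8, 8.63, 14.5 and 8.097 CPM in the old libraries and 26.5, 21.6, 27.9 and 28.3 CPM in the new libraries, were higher in new. Egfl7, named for endothelium, was higher in old at 5.97, 6.19, 5.77 and 7.27 CPM in the old libraries and 1.41, 2.68, 1.53 and 2.26 CPM in the new libraries. Vwf, von Willebrand factor and the most abundant gene of the endothelial list, had 331, 374, 49.95 and 38.7 CPM in the old libraries and 649.9, 569, 71.4 and 57.5 CPM in the new libraries. It was highest in Lmyc3 new and Lmyc1 old, the labels overlapped, and its value of -0.76 ± 1.13, opposite in sign to that of Egfl7 (1.72), did not pass. Cdh5 and Pecam1 of the same list were at or near 0.

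Other genes differed widely between cultures and did not pass the test between labels. Krt8, an epithelial keratin, had 399.6, 406, 49.6 and 39.6 CPM in the old libraries and 1293, 1236, 1.04 and 0.702 CPM in the new libraries, and Cdh1, E-cadherin, had 289.7, 268, 67.5 and 60.2 CPM in the old libraries and 787, 684, 1.94 and 0.546 CPM in the new libraries. Both were high in Lmyc1 old and Lmyc3 new and low in Lmyc3 old and Lmyc5 new. None of 36 epithelial genes passed, and the list's median was -0.91 in the test, -4.04 for Lmyc3 old minus Lmyc3 new and 3.13 for Lmyc1 old minus Lmyc5 new. Of 9 tested Hox genes none passed, although all 9 values were negative, with a median of -1.06, and 4 had all new libraries above all old ones (10.4% of all genes tested). Hoxb8, 1 of these 4, had 94.2, 87.1, 0.899 and 0.644 CPM in the old libraries and 124, 118, 259 and 234 CPM in the new libraries, while Hoxb5 had 165, 162, 2.79 and 1.89 CPM in the old libraries and 182, 169.8, 133 and 109 CPM in the new libraries and overlapped. In both genes Lmyc3 old was far below the other 3 cultures. Mycl had 142, 179, 463 and 1129 CPM in the old libraries and 156, 256, 118 and 166 CPM in the new libraries, a value of 1.39 ± 0.62 with an adjusted p of 0.25, and its highest levels were in Lmyc3 old. Nfib itself had 71.97, 1282, 400.2 and 4682 CPM in the old libraries and 163, 2933, 487 and 3589.7 CPM in the new libraries, where the high values are those of the Nfib arm, and a label difference of -0.30 ± 0.66. Nfix, of the same family, had 2.14, 2.96, 9.18 and 62.2 CPM in the old libraries and 65.2, 45.9, 190.3 and 272 CPM in the new libraries and a value of -3.38 ± 1.24 that did not pass. Nfic, Myc and Mycn did not pass either, and Myc was at 2.51, 3.18, 0.237 and 1.01 CPM in the old libraries and 0.0742, 0.907, 1.13 and 1.68 CPM in the new libraries. Nfia was at 0.0678, 0.0872, 84.2 and 53.3 CPM in the old libraries and 14.1, 13.2, 48.98 and 52.3 CPM in the new libraries, near 0 in Lmyc1 old only. Usp18, an interferon-induced protease, had 2.85, 2.79, 94.7 and 46.5 CPM in the old libraries and 2.52, 0.648, 2.89 and 3.71 CPM in the new libraries, high in Lmyc3 old only.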

How the data were processed

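RNA was measured by RNA-seq in 8 libraries, prepared with the Illumina TruSeq protocol per the labels. The authors deposited raw read counts per Ensembl gene (22691 genes, whole numbers, not normalized) in 1 table with symbols and coordinates. TopHat2 2.1, Bowtie 1.0.0, SAMtools 0.1.19 and DESeq2 and the build GRCm38 (mm10) are named per the submitters' processing notes. How reads were counted, on which strand and with which annotation is not given in the sources used here, so antisense and overlapping genes cannot be told apart and near-identical copies (Xlr3b, ribosomal proteins, MHC class I genes) are uncertain.

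Labels, arms and cultures came from the sample descriptions and sources. Nothing says that libraries of a culture are separate cultures, so p-values measure only the spread between these samples. Old was tested against new with the arm as covariate by edgeR 4.0.16 in R 4.3.3 (quasi-likelihood, original form, TMM, expression filter by label, which kept 13380 genes) at a Benjamini-Hochberg adjusted p under 0.05. CPM use TMM-scaled library sizes, except the limits for a count of 0, and log2 CPM use a prior count of 2. DESeq2 1.42.0, limma 3.58.1 (voom) with the culture as a random block, sums per culture, other scalings, filters and thresholds, 1 arm only, line as covariate and each library or culture left out were the alternatives. Libraries of a culture were paired by the labels, and limma estimated their correlation at 0.871. The fits were tested on simulated data in which libraries were drawn independently, without differences between cultures. That test therefore cannot show how the fits behave when libraries share a culture.

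Genes named are the nuclear factor I and MYC genes and Rb1, the 15 of largest difference in each direction (mean of at least 1 CPM, labels not overlapping), the 5 largest with a mean of at least 50 CPM, up to 4 called members of each gene list in each direction, and abundant markers of other cell types. Other genes are given as values of a list or region, except Cth, which was chosen after its values were seen. The comparison and the lists were chosen with earlier results of these data known. Promoter windows came from a RefSeq table (GRCm38.p6). An allele of the genotype and some list members are not reported here.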

Additional observations from a re-analysis of the deposited data

Results flagged for a closer look

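In 15 of 196 groups of 4 libraries (98 named genes under each label), 1 library lay far from the other 3 of its label, with a gap to the nearest one that took up most of the label's range. The cutoff flags about 1 in 20 groups of independent, normally distributed values. Here the libraries come in pairs from shared cultures, so that rate does not apply. A group with 1 library above 0 and the other 3 at 0 is always flagged. In the old cultures, Decr1 was at 22.5 CPM in Lmyc3 old with Nfib, against 5.25 CPM in the next library. In the same library Nfix was at 62.2 CPM (next 9.18), Mcm5 at 154 CPM (next 121) and Chac1 at 9.62 CPM (next 20.3). In Lmyc3 old with empty vector, Cox4i1 was at 206 CPM (next 186). In Lmyc1 old with Nfib, Kif23 was at 102 CPM (next 84.4) and Pou3f4 at 2.22 CPM (next 0.460). In Lmyc1 old with empty vector, Prrt1 was at 0.0339 CPM, a single count, and at 0 in the others.

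In the new cultures, 3 genes stood apart in Lmyc3 new with empty vector: Ptprn at 122 CPM (next 55.9), Abat at 51.6 CPM (next 25.9) and Magel2 at 0.111 CPM, against 0 in the others. In Lmyc5 new with Nfib, Col4a2 was at 6.21 CPM (next 1.89), Esrrg at 13.6 CPM (next 23.7) and Xlr3b at 0.03903 CPM, against 0 in the others. In Lmyc5 new with empty vector, Sox2 was at 20.99 CPM (next 10.97).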

How the results depend on the processing

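All 82 called genes named by the rule kept their direction in every alternative that tested them. Their labels did not overlap in these same libraries, so a change of sign was hardly possible, and the kept direction is no separate support. The counts of calls (165 higher in old, 279 higher in new) moved widely, and the cause was not tested. They were 1106 and 1162 with DESeq2, 375 and 503 without the arm covariate, 3952 and 4063 with line as covariate (which compares the Lmyc3 cultures alone), 155 and 345 with total-count scaling, 70 and 125 without a low-count filter, 257 and 389 with edgeR's bias-adjusted form, 0 and 1 at an adjusted p under 0.01, and 519 and 630 under 0.1. With empty vector libraries only, with Nfib libraries only and with counts summed per culture, they were 0 and 0, where 704, 624 and 734 genes had an unadjusted p under 0.05. Leaving out 1 culture or library gave 0 to 716 higher in old and 1 to 733 higher in new: 716 and 733 without Lmyc1 old, 119 and 131 without Lmyc3 old, 56 and 132 without Lmyc3 new, 208 and 161 without Lmyc5 new, and at most 13 and 34 without any single library. A fit with 1 culture left under a label assumes that it varies like the others. In alternatives chosen after seeing the data, the counts were 52 and 56 without chromosome 8 genes, and 3036 and 3055 without both Lmyc3 cultures. The main fit called 163 and 116 genes off chromosome 8, so leaving out its genes also removed calls on other chromosomes. Of 69 named called genes in that fit, 41 were still called and 28 were lost.

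A fixed replicate block could not be fitted, since each culture has 1 label. With the culture as a random replicate block, the pairing of libraries gave 0 and 0 calls, with 992 genes at an unadjusted p under 0.05 and a smallest adjusted p of 0.324.

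Of genes that did not pass, some changed sign. Without both Lmyc3 cultures the log2 value was -0.68 for Fbln1, -0.22 for Mbp, -9.27 for Nfia, 0.24 for Abca3, 0.82 for Coro1a and 2.46 for Vwf. Nfia was at -3.84 with the random replicate block and -0.30 with Nfib libraries only, and with line as covariate Nfib was at 0.96 and Cd68 at 0.18. With 1 culture or library left out, values ranged from -4.69 to 6.61 for Avil, -0.088 to 2.102 for Mycl, -0.78 to 2.31 for Myc, -0.027 to 1.13 for Mbp, -8.62 to 1.29 for Nfia, -0.38 to 0.27 for Abca3, -0.75 to 0.43 for Coro1a, -1.74 to 0.41 for Nfib and -2.93 to 1.63 for Vwf.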
